A study of Peromyscus maniculatus with 16 samples.

Results

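The livers of all deer mice fed a high fat diet (HFD) were compared with the livers of deer mice fed regular chow (C), whatever the histology of the liver. Every animal of the series entered the comparison, 16 of 16, and the split was by the labelled diet alone, so no measured value was used to choose the animals. The HFD group held 10 animals, 5 without steatosis (NS) and 5 with steatosis (S), and the C group held 6. All were outbred Peromyscus maniculatus from captive stocks, kept on their diet for 28 weeks and killed at 10 months of age. The HFD was rich in fat and sucrose. The labels give 13 animals as the BW stock (P. maniculatus bairdii) and 3 as the SM2 stock (P. maniculatus sonoriensis), with 1 SM2 animal in each of C (animal 10876), NS (10865) and S (10880). Females 35955, 35982 and 35990 were all BW animals in S, and all the other 13 animals were male. Diet and sex therefore cannot be told apart in the females, and no female was fed chow. Stocks of this kind are not inbred, so each animal carried its own genotype, and a group differs from another in diet and also in the animals it happens to hold.

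A liver that receives more fat and sugar than it burns can turn carbohydrate into fatty acids, lengthen and desaturate them, store them as triglyceride in droplets, or export them in lipoproteins. The transcription factors SREBP-1c (gene Srebf1) and ChREBP (Mlxipl) are known to switch on the enzymes of fatty acid synthesis in response to insulin and sugar. The same organ breaks down amino acids, makes urea, and runs the methionine cycle, in which S-adenosylmethionine donates methyl groups and Gnmt consumes the excess. Genes of these pathways are described below by their place in the pathway.

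Reads were counted per gene for 16910 genes, of which 2251 had no count in any animal. The libraries held 4640733 to 11349971 counts, the fewest in S animal 36016. Levels are given as CPM, the count of a gene scaled to a common library size after TMM normalization. Within a group, the counts of even the closest pair of animals differed by far more than counting error (chi-square per degree of freedom 23.6), so each animal was a replicate. The first principal component (27.9% of the variance) set the 3 SM2 animals apart from the BW animals, the second (16.97%) set S animal 36016 apart, and the fourth (7.97%) set S animal 35990 apart. On the third (10.02%), C animals lay at −28 to −4.6. HFD animals lay there at 5.5 to 30.1, except NS animal 35930 (−4.6) and S animal 36016 (−23.1). The 3 females were the highest on it, at 14.9 to 30.1. Hepatocyte markers, 10 genes, summed to 57320 to 73850 CPM in C, 53970 to 83860 CPM in NS and 47340 to 64550 CPM in S. Of these markers 9 had a log2 fold change below 0 on HFD, with a median of −0.38 (−0.20 in NS and −0.56 in S), 1 fell (Ass1) and 1 rose (Apoa1). In bulk tissue, fewer cells of a type and less RNA per cell cannot be told apart.

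Between the diets a small set of genes differed by a large amount, and a larger set by less than 2-fold. The leading genes higher on HFD were Fads1 and Fads2, the desaturases of polyunsaturated fatty acid synthesis, and the leading genes lower on HFD were Ethe1, which oxidises persulfide in mitochondria, and Gnmt. With stock as a blocking factor in edgeR's quasi-likelihood test, and a gene called at a Benjamini-Hochberg adjusted p under 0.1 with a fold change of at least 2, 151 of 12639 genes tested were called (1.19%). Of these, 96 were higher on HFD (0.76% of the genes tested) and 55 were lower (0.435%). At an adjusted p under 0.1 without the limit on fold, 478 genes differed (3.78%), of which 262 were higher (2.07%) and 216 lower (1.71%), and an unadjusted p under 0.05 was held by 2533 genes (20%). For 22 genes every HFD animal lay above every C animal (0.174% of the genes tested), and for 22 every HFD animal lay below (0.174%). Among the called genes 8 were of the first kind and 8 of the second.

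**Figure D1:**
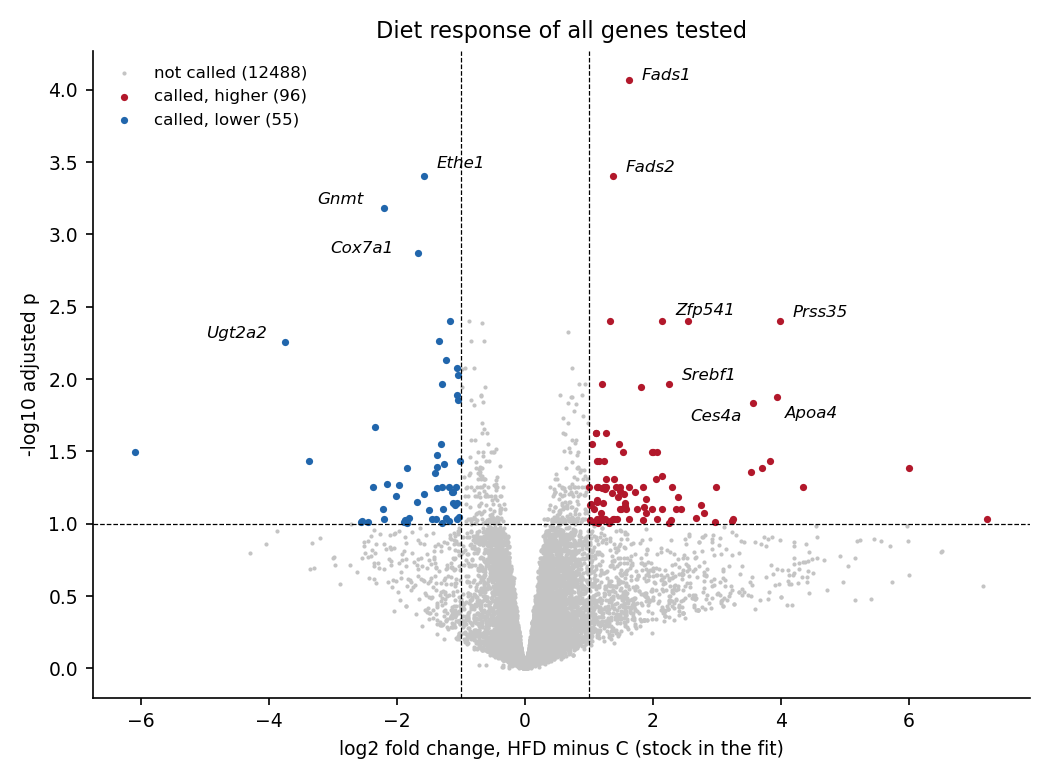
Each point is 1 of the 12639 genes tested, with the log2 fold change of HFD against C on the x axis and −log10 of the adjusted p on the y axis. Dashed lines mark the limits of a call, 96 called genes lie to the upper right and 55 to the upper left, and the fitted values farthest from 0 include genes at 0 counts in 1 group, whose fold change depends on the prior count.

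The called genes differed in level and in how firmly they held. A mean over all animals of at least 100 CPM was reached by 10 of the higher and 12 of the lower genes, whereas 63 higher and 30 lower genes had a mean under 10 CPM. The median log2 fold change was 1.54 over the 96 higher genes and −1.38 over the 55 lower genes, against 0.07 over all genes tested. Where no other tool is named, a gene rose, fell or passed in edgeR's test. The number of calls depended on single animals. Without C animal 10876, the only SM2 animal on chow, 40 genes were called, and without NS animal 35930 there were 350. Counts also moved by more than 1.5 times without C animals 36007 (48 genes), 36001 (61) and 35975 (68), without S animals 35955 (87), 35982 (91) and 10880 (97), and without NS animal 35987 (100). A core of 23 genes, 12 higher and 11 lower, was called with any 1 of the 16 animals left out, and 17 of them (11 higher and 6 lower) were also called under all of 10 other settings, which included another test, another scaling, males alone and BW animals alone. The 12 higher genes of the core were Fads1, Fads2, Srebf1, Apoa4, Ces4a, Prss35, Dapl1, Zfp541, Gse1, Zmym3, Lrfn3 and Kank2. The lower genes of the core included Gnmt, Ethe1, Cox7a1, Acmsd, Crem, Slc1a2, Ugt2a2, Mfsd4b1, Cables1 and Car3. Kank2 and Car3 were named after their values had been seen.

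Genes of the desaturation and elongation of polyunsaturated fatty acids led the response. Fads1 was measured at 153 to 258 CPM in C (median 173) and at 352 to 724 CPM on HFD (median 627). Its groups did not overlap, and it rose 3.08-fold (log2 fold change 1.62 ± 0.16 SE, adjusted p = 8.59e-05). Fads2 ranged from 448 to 728 CPM in C (median 565) and from 915 to 1866 CPM on HFD (median 1557), again without overlap. The rise of Fads2 was 2.60-fold (1.38 ± 0.16, adjusted p = 0.000398). Elovl5 and Elovl2, the elongases that act between and after the desaturases, rose by less than 2-fold, with log2 fold changes of 0.89 ± 0.16 (adjusted p = 0.0128) and 0.83 ± 0.20 (adjusted p = 0.0554). In all, 4 of 12 members tested of the polyunsaturated fatty acid list rose and none fell at an adjusted p under 0.1. The share of 33.3% stands beside the 2.07% of all genes that rose. The 4 genes rose in males alone as well, at an adjusted p of 0.0557 or lower.

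Genes of fatty acid synthesis from carbohydrate were higher, among them regulators and several enzymes. Srebf1, which encodes the sterol-sensitive factor SREBP-1, stood at 42.4 to 264 CPM in C (median 148) and at 237 to 1501 CPM on HFD (median 668). A single NS animal lay within the C range and the rise was 4.78-fold (2.26 ± 0.40, adjusted p = 0.0108). Pklr, the liver pyruvate kinase, lay between 73.3 and 237 CPM in C (median 98.6) and between 101 and 972 CPM on HFD (median 417). The groups of Pklr overlapped through a single S animal, a female at 101 CPM, and the rise was 3.95-fold (1.98 ± 0.42, adjusted p = 0.0318). Me1, a source of the NADPH that synthesis consumes, rose 2.89-fold (1.53 ± 0.33, adjusted p = 0.0318). Mlxipl rose 2.05-fold and Acly, which supplies cytosolic acetyl-CoA, 4.88-fold, with adjusted p of 0.0735 and 0.0946. With each of the 16 animals left out in turn, Mlxipl was called in 7 fits and Acly in 4. Neither was called in males alone, in BW animals alone or without stock in the fit. Tkfc, a kinase of fructose breakdown, rose 1.63-fold (adjusted p = 0.0962). Of 19 members tested, 6 rose (31.6%, beside 2.07% of all genes) and none fell, and 18 of 19 had a log2 fold change above 0, with a median of 1.11. Scd1, Acaca, Elovl6 and Thrsp were among those that did not pass, with log2 fold changes of 1.55 ± 0.60, 1.20 ± 0.45, 1.60 ± 0.51 and 1.05 ± 0.32. The count of 6 fell to 1 without C animal 10876 and to 3 without any of S animals 10880, 35982 and 35955 or C animals 36001 and 36007. It was 12 without NS animal 35930, 3 in males alone and 1 in BW animals alone. The median of the list lay between 0.95 and 1.41 with each animal left out.

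Genes of lipoprotein and fatty acid handling moved in different directions. Apoa4, an apolipoprotein of triglyceride-rich particles, ranged from 17.8 to 212 CPM in C (median 27.4) and from 179 to 2012 CPM on HFD (median 625). C animal 36007 was far above the other C animals, so the groups overlapped, and the rise was 15.3-fold (3.93 ± 0.73, adjusted p = 0.0133). Apoa1, the main apolipoprotein of HDL, rose 2.24-fold, from a median of 6476 CPM in C to 16716 CPM on HFD (1.16 ± 0.26, adjusted p = 0.0366). Angptl4, a secreted inhibitor of lipoprotein lipase, fell 3.52-fold (−1.82 ± 0.52, adjusted p = 0.0914), a call that was lost without any 1 of 10 animals. Fabp1, the fatty acid binding protein of hepatocytes, rose from a median of 1861 CPM in C to 6674 CPM on HFD (1.58 ± 0.43, adjusted p = 0.0791). The call of Fabp1 held in 7 of 16 fits with 1 animal left out. Hilpda, a small protein that restrains lipolysis at the droplet, fell (−2.37 ± 0.59, adjusted p = 0.0561), with a C range of 0.156 to 15.1 CPM that spanned the whole HFD range.

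Between storage and burning, few of the listed genes passed. In triglyceride synthesis, Gpd1, which makes glycerol phosphate, rose (0.95 ± 0.24, adjusted p = 0.0605) and the acyltransferase gene Gpat4 fell (−0.67 ± 0.13, adjusted p = 0.0201), both by less than 2-fold. Among 43 genes of fatty acid oxidation and of PPARα targets, 1 rose (2.33%, beside 2.07% of all genes) and 2 fell (4.65%, beside 1.71%). Fabp1 was the gene that rose. Angptl4 and the carnitine transporter gene Slc22a5 (−0.64 ± 0.15, adjusted p = 0.0536) fell. Cpt1a, the entry step of mitochondrial oxidation, had a log2 fold change of −0.12 ± 0.26 and did not pass. Of 26 genes of cholesterol synthesis and uptake, 1 rose (3.85%, beside 2.07% of all genes) and none fell, while 22 had a log2 fold change above 0 (median 0.51).

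**Figure D2:**
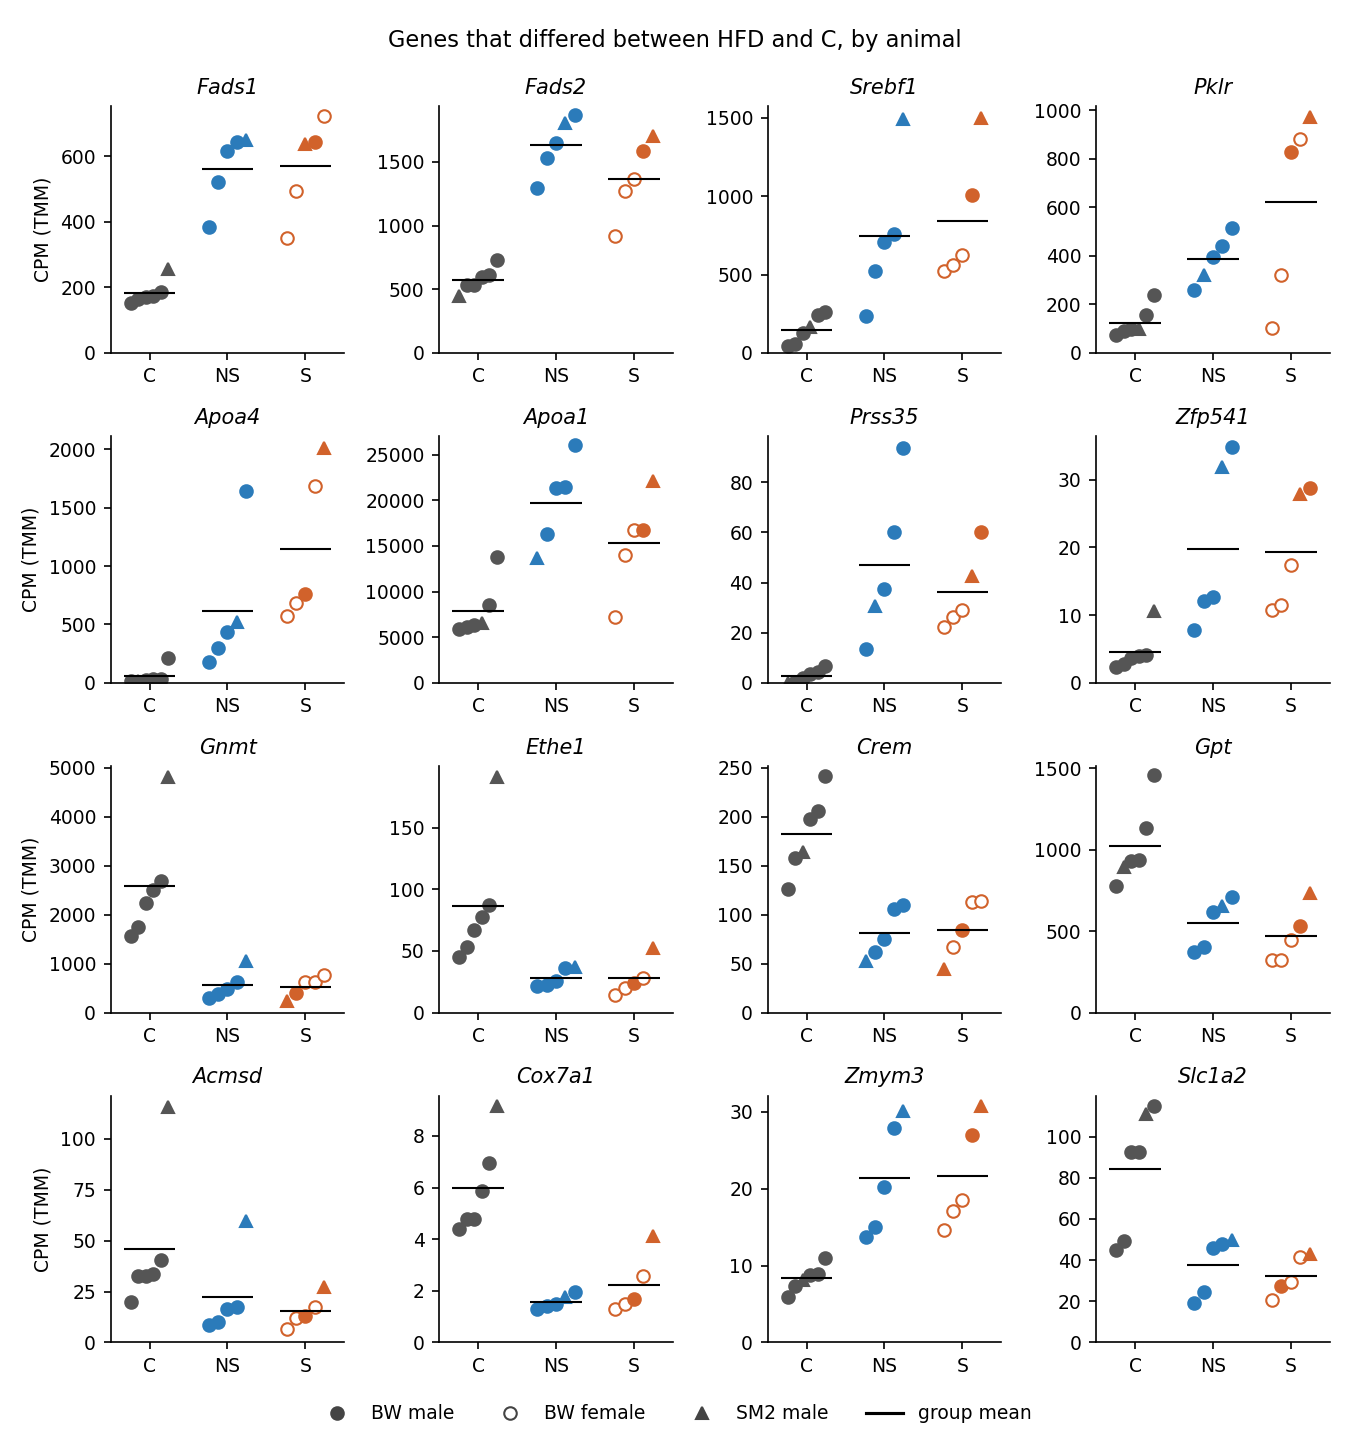
Each panel shows 1 gene, with CPM after TMM scaling on a linear y axis starting at 0 and the animals of C, NS and S on the x axis. Filled circles are BW males, open circles BW females and triangles SM2 males, and lines are group means. For Fads1, Fads2, Prss35, Gnmt, Crem, Gpt, Cox7a1 and Zmym3 the ranges of HFD and C do not overlap, while for Apoa4 C animal 36007 (212 CPM) lies among the HFD animals.

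Many genes of amino acid breakdown were lower on HFD, with changes mostly under 2-fold. Of 64 members tested of the list of amino acid catabolism and the urea cycle, 22 fell (34.4%, beside 1.71% of all genes) and 1 rose. The median log2 fold change was −0.40 and 51 of 64 lay below 0, beside a median of −0.38 over the hepatocyte markers, of which Ass1, Tdo2, Tat and Cps1 are also in this list. The part of a shift of hepatocyte markers in the result was not tested. Genes of tyrosine breakdown fell, with log2 fold changes of −0.74 ± 0.16 for Hpd, −0.73 ± 0.17 for Hgd, −0.69 ± 0.13 for Gstz1 and −0.41 ± 0.12 for Fah. Acmsd, which diverts the tryptophan pathway away from NAD synthesis, fell 2.53-fold (−1.34 ± 0.21, adjusted p = 0.00546), and Kmo upstream of it fell by less (−0.70 ± 0.16, adjusted p = 0.046). Gpt, the alanine aminotransferase gene, ranged from 775 to 1455 CPM in C (median 933) and from 320 to 734 CPM on HFD (median 488), without overlap. The fall of Gpt was 2.05-fold (−1.04 ± 0.19, adjusted p = 0.014).

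Several further pathways of the list shared this direction. The proline oxidation gene Prodh (−0.99 ± 0.17, adjusted p = 0.00848) fell, with every HFD animal below every C animal, and so did the lysine breakdown gene Aass (−0.94 ± 0.16, adjusted p = 0.00841). Genes of branched-chain amino acid and propionate breakdown were lower, namely Bckdhb (−0.64 ± 0.10), Ivd (−0.56 ± 0.12), Mccc2 (−0.44 ± 0.10), Mccc1 (−0.32 ± 0.09), Pcca (−0.45 ± 0.10) and Mmut (−0.38 ± 0.09). Bcat2, the transaminase expressed mainly outside hepatocytes, was the member that rose (0.86 ± 0.20, adjusted p = 0.0438). In the urea cycle Ass1 fell from a median of 5608 CPM to 2717 CPM (−0.94 ± 0.22, adjusted p = 0.0473), and Otc (−0.49 ± 0.11) and Arg1 (−0.74 ± 0.21) also fell. Cps1, the entry step, had a log2 fold change of −0.35 ± 0.20 and did not pass (adjusted p = 0.325). The count of 22 was 9 without C animal 10876, 11 without 36007 and 14 without 35975, and 29 without NS animal 35930. It was 13 in males alone, 12 without stock in the fit and 9 in BW animals alone, while the median stayed between −0.43 and −0.35 with each animal left out.

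Genes of the methionine cycle and of the pathways that feed and drain it were lower at several points. Gnmt, which consumes S-adenosylmethionine to methylate glycine, stood at 1556 to 4806 CPM in C (median 2373) and at 230 to 1046 CPM on HFD (median 549). No HFD animal reached the C range, and the fall was 4.58-fold (−2.20 ± 0.27, adjusted p = 0.000659). The SM2 animal was the highest of C in Gnmt and the highest of NS, but the lowest of S. Ethe1 was measured at 45.2 to 191 CPM in C (median 72.2) and at 14.1 to 52.1 CPM on HFD (median 24.7). The highest HFD value of Ethe1 came from an SM2 animal and lay within the range of the BW animals in C, and the fall was 2.99-fold (−1.58 ± 0.18, adjusted p = 0.000398). Sqor, which oxidises sulfide upstream of Ethe1, fell 1.83-fold without overlap of the groups (−0.88 ± 0.13, adjusted p = 0.00399). Sarcosine, the product of Gnmt, is broken down by Sardh, which fell 1.97-fold (−0.98 ± 0.18, adjusted p = 0.0114), and dimethylglycine by Dmgdh (−0.91 ± 0.24, adjusted p = 0.0735).

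In the same list, 11 of 38 members tested fell (28.9%, beside 1.71% of all genes) and 1 rose. Mat1a, which makes S-adenosylmethionine in adult liver, fell 1.37-fold (−0.46 ± 0.12), Cth of transsulfuration 1.68-fold (−0.75 ± 0.19), and Aldh7a1, which oxidises betaine aldehyde, 1.60-fold (−0.67 ± 0.10). Nnmt, another consumer of S-adenosylmethionine, fell 2.72-fold (−1.44 ± 0.42, adjusted p = 0.0926), a call that held in 4 of 16 fits with 1 animal left out. Cbs (−0.35 ± 0.11) and Pemt (−0.41 ± 0.14) did not pass. The count of 11 fell to 5 without C animals 10876 or 36007 and to 7 without S animals 35955 or 35982, NS animal 35987 or C animals 35972 or 35975. It was 7 in males alone and 4 without stock in the fit.

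**Figure D3:**
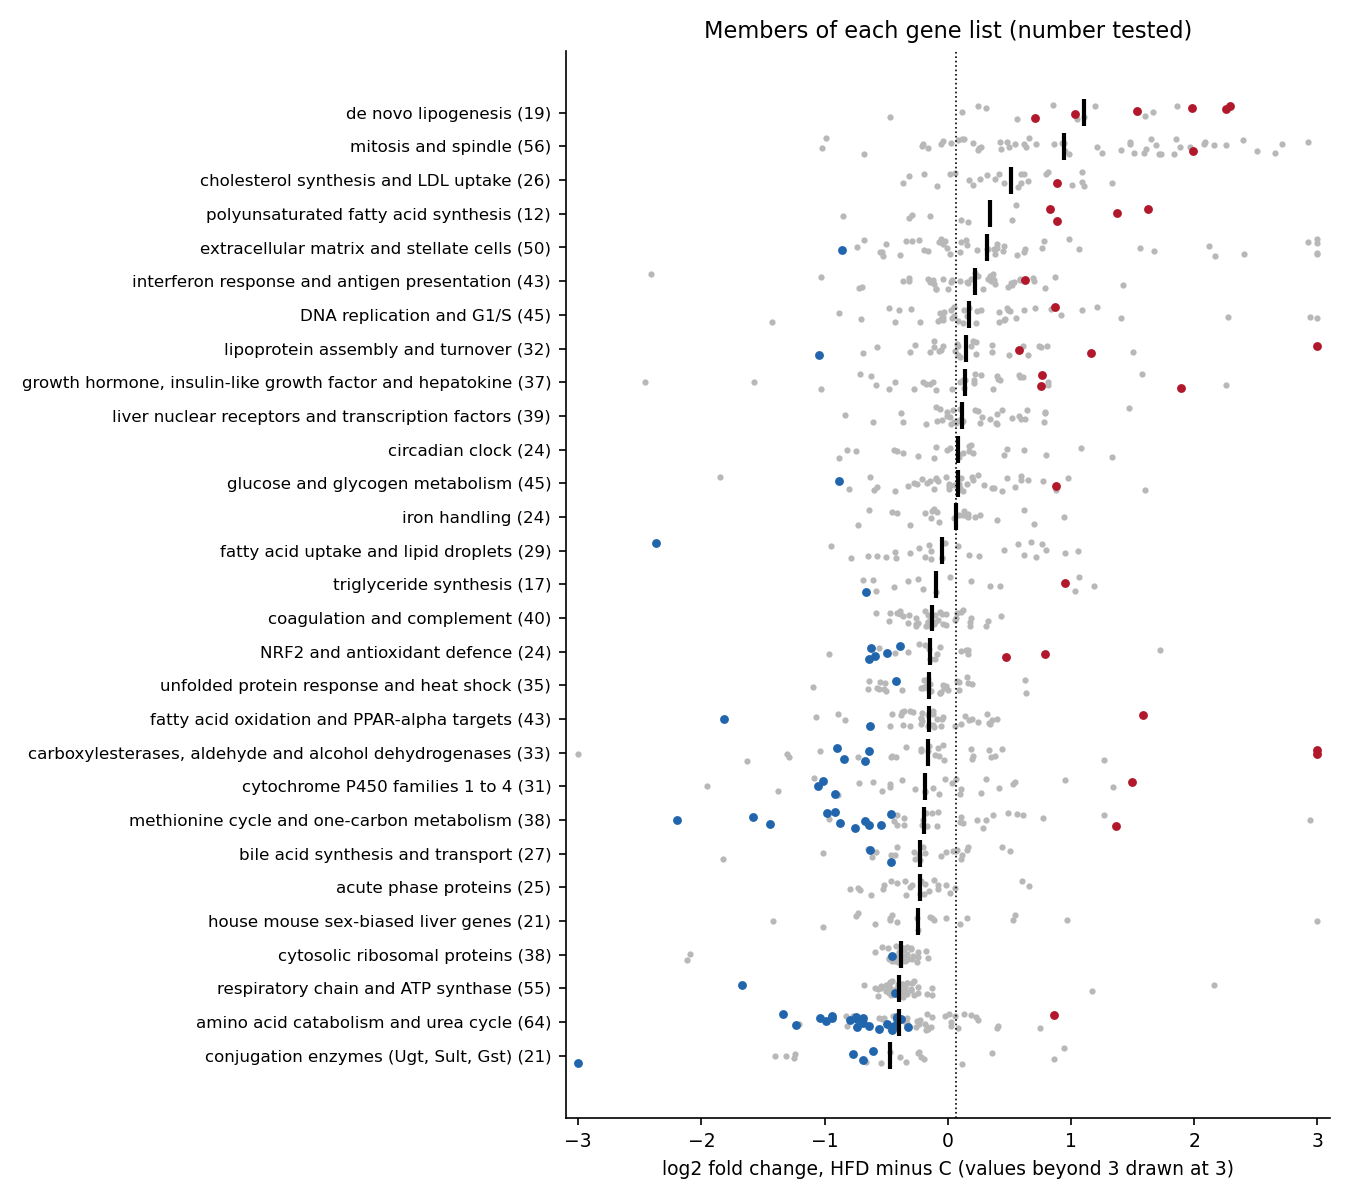
Each row is a gene list with the number of members tested, each point a member at its log2 fold change of HFD against C, and values beyond 3 in either direction are drawn at the edge. Red and blue points passed an adjusted p of 0.1, black bars are list medians and the dotted line is the median of all genes (0.07). Blue points gather in amino acid catabolism (22 of 64) and the methionine list (11 of 38), and red points in lipogenesis (6 of 19).

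Genes of detoxification were mixed in direction, with more lower than higher. Ugt2a2, of a family that attaches glucuronic acid to drugs and steroids, lay between 0.867 and 79.1 CPM in C (median 4.25) and between 0.188 and 2.07 CPM on HFD (median 0.73). It fell 13.4-fold (−3.75 ± 0.60, adjusted p = 0.00554), but Ugt2a genes share exons or close copies, so the count is uncertain. Of 21 conjugation enzymes, 4 fell (19%, beside 1.71% of all genes) and none rose, the others being Gstz1, Gstk1 (−0.61 ± 0.13) and Gstm2 (−0.77 ± 0.17). The count of 4 was 2 without C animal 10876 and in males alone, and 7 without NS animal 35930. Among 31 cytochrome P450 genes, 3 fell (9.68%, beside 1.71% of all genes) and 1 rose (3.23%, beside 2.07%). Cyp2d22 (−1.05 ± 0.18, adjusted p = 0.00841), Cyp3a13 (−1.01 ± 0.22, adjusted p = 0.0371) and the electron donor gene Por, counted in the list (−0.91 ± 0.27, adjusted p = 0.0954), fell. Cyp1a1 rose from a median of 1.16 CPM to 2.93 CPM (1.49 ± 0.41, adjusted p = 0.0791), a call that held in 7 of 16 fits with 1 animal left out. The carboxylesterase gene Ces4a rose 11.8-fold (3.56 ± 0.67, adjusted p = 0.0145) from at most 1.11 CPM in C to a median of 4.39 CPM on HFD, while the carboxylesterase gene Ces1g fell (−0.84 ± 0.24, adjusted p = 0.0926). The flavin monooxygenase gene Fmo6 fell (−2.45 ± 0.73, adjusted p = 0.0966) at medians of 0.714 and 0.163 CPM, with overlapping groups. The call of Fmo6 held in 4 of 16 fits with 1 animal left out.

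Within the list of NRF2 and antioxidant defence, 5 of 24 fell (20.8%, beside 1.71% of all genes) and 2 rose (8.33%, beside 2.07%). The count of 5 was 1 in males alone and 1 without any of 8 animals (C animals 10876, 35972, 35975, 36001 and 36007, S animals 35955 and 35982, and NS animal 35987), 2 without any of 10880, 35937 and 35990, and 3 without either of 10865 and 36016. No member rose in males alone or without C animal 35975. The gene of NRF2 itself, Nfe2l2, rose 1.39-fold (0.47 ± 0.11, adjusted p = 0.0489), and of the 2 subunits of glutamate-cysteine ligase, Gclm fell (−0.64 ± 0.13, adjusted p = 0.022) and Gclc rose (0.79 ± 0.22, adjusted p = 0.082). Peroxidase genes Gpx1 (−0.63 ± 0.19), Gpx4 (−0.59 ± 0.17) and Prdx5 (−0.49 ± 0.14) and the dismutase gene Sod2 (−0.39 ± 0.10) fell. In bile acid synthesis Slc27a5 (−0.63 ± 0.16, adjusted p = 0.0589) and Cyp27a1 (−0.46 ± 0.14, adjusted p = 0.0954) fell, and Cyp7a1, the rate-limiting enzyme of the classic pathway, was at −0.24 ± 0.50 and did not pass.

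Subunits of the respiratory chain and the cytosolic ribosome shifted together by small amounts, more in S than in NS. For 53 of 55 respiratory chain and ATP synthase genes and 38 of 38 ribosomal protein genes the log2 fold change lay below 0, with medians of −0.39 and −0.38. Against the same C animals, these medians were −0.20 and −0.21 in NS and −0.60 and −0.60 in S. Of the 2 lists, 2 and 1 genes passed in edgeR (3.64% and 2.63%, beside 1.71% of all genes that fell). In either direction, 26 and 5 passed in DESeq2, and 6 and 3 in limma-voom. Over all genes, DESeq2 called 276 and limma-voom 235 with the 2-fold limit, against 151 in edgeR. Their shares of all genes without that limit are not given, so their counts here and below are not read as results about a list. Cox7a1, a subunit isoform of cytochrome oxidase known from heart and muscle, was the exception in size, at 4.38 to 9.15 CPM in C (median 5.33) and 1.28 to 4.14 CPM on HFD (median 1.59). Its groups did not overlap and it fell 3.19-fold (−1.67 ± 0.22, adjusted p = 0.00135). Single animals moved the edgeR counts, most of all NS animal 35930, whose summed respiratory chain level of 24920 CPM and ribosomal level of 17180 CPM were the highest of any HFD animal, above 5 of the 6 C animals in the first and above all 6 in the second. Without it 44 respiratory chain genes and 20 ribosomal protein genes fell. Without C animal 35998 the counts were 15 and 7, without NS animal 35963 they were 6 and 0, and without any 1 of the other animals at most 2 and 0. The hepatocyte markers had a median of −0.38 as well, and their sum was also the highest in NS animal 35930 (83860 CPM), but their part in the result was not tested. The median shift of all genes was 0.07 under TMM and 0.23 under scaling by total count alone, and under the latter both list medians were still below 0, at −0.24 and −0.22.

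Genes of mitosis had high fitted changes and few of them passed. Over 56 genes of mitosis and the spindle the median log2 fold change was 0.95. It was 0.56 in males alone, 0.77 without S animal 36016, and 0.56 to 1.07 with each animal left out. The 56 genes together summed to 72.7 to 105 CPM in C, 71.6 to 103 CPM in NS and 81.7 to 232 CPM in S. In edgeR 1 gene rose (1.79%, beside 2.07% of all genes). This was Incenp of the chromosomal passenger complex (1.99 ± 0.54, adjusted p = 0.0791), from a median of 0.459 CPM to 1.18 CPM. Its call held in 8 of 16 fits with 1 animal left out. DESeq2 passed 6 genes of the list and limma-voom 1. The list median was −0.04 for NS against C and 1.53 for S against C, both fitted with the same C animals. Lig1, the ligase that joins replication fragments, rose 1.83-fold (0.87 ± 0.20, adjusted p = 0.0427). It was 1 of 45 DNA replication genes to pass in edgeR (2.22%, beside 2.07% of all genes that rose), where DESeq2 passed 7 and limma-voom 2. The median of that list was 0.17.

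Among secreted factors and signalling genes, Inhba and Inhbc, which encode activin subunits, rose. Inhba went from a median of 3.92 CPM in C to 11.9 CPM on HFD (1.89 ± 0.50, adjusted p = 0.0676). Inhbc ranged from 49.1 to 78.3 CPM in C and from 85.8 to 155 CPM on HFD, without overlap (0.76 ± 0.15, adjusted p = 0.0166). Stat5a, a mediator of growth hormone signalling, rose (0.76 ± 0.22, adjusted p = 0.0929), so 3 of 37 genes of the growth hormone, IGF and hepatokine list rose (8.11%, beside 2.07% of all genes). The count of 3 was 1 without any of C animals 10876, 35975, 36001 and 36007 or S animals 10880 and 35955, and 2 in males alone and without any of 10865, 35937, 35982, 35987, 35990 and 36016. No member fell with all animals, but 4 did without NS animal 35930, 2 without C animal 35998 and 1 without either of 10865 and 35990. The matrix gene Dcn fell (−0.86 ± 0.19, adjusted p = 0.0346). It was 1 of 50 matrix and stellate cell genes to pass in edgeR (2%, beside 1.71% of all genes that fell), where DESeq2 passed 6 and limma-voom 1. Most of that list went the other way, with 32 of 50 above 0 and a median of 0.32 (−0.20 in NS and 0.61 in S). Without S animal 36016 the median was 0.02. The antiviral signalling gene Stat2 rose (0.63 ± 0.17, adjusted p = 0.0765). It was 1 of 43 interferon genes to pass in edgeR (2.33%, beside 2.07% of all genes that rose), with 6 in DESeq2 and 1 in limma-voom. Gys2, the liver glycogen synthase, fell (−0.88 ± 0.23, adjusted p = 0.0645) and Dlat of pyruvate dehydrogenase rose (0.88 ± 0.26, adjusted p = 0.0966). They were 2 of 45 glucose and glycogen genes to pass in edgeR (4.44%, beside 3.78% of all genes), where DESeq2 passed 8 and limma-voom 4. Dnajc3 fell (−0.42 ± 0.12, adjusted p = 0.0913). It was 1 of 35 genes of the unfolded protein response to pass in edgeR (2.86%, beside 1.71% of all genes that fell), with 7 in DESeq2 and 1 in limma-voom. The edgeR count of that list was 0 without any of 10 animals, 6 without NS animal 35930, 3 without either of C animals 35972 and 35998, and 2 without NS animal 35937.

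No member passed at an adjusted p under 0.1 in edgeR in the lists of acute phase proteins (25 tested), coagulation and complement (40), the circadian clock (24), nuclear receptors and liver transcription factors (39), iron handling (24) and house mouse sex-biased liver genes (21). An unadjusted p under 0.05 was held by 3, 3, 3, 12, 5 and 5 of their members in that order, and DESeq2 with an adjusted p under 0.1 passed 1, 2, 2, 6, 2 and 2. The log2 fold change lay above 0 for 4, 11, 14, 28, 13 and 6 of them, with list medians of −0.23, −0.12, 0.09, 0.12, 0.07 and −0.24. The acute phase genes summed to 51160 to 89370 CPM in C, 50780 to 81580 CPM in NS and 29460 to 45260 CPM in S. Among the members closest to the limit were Crp (0.66 ± 0.21), Serpinc1 (−0.37 ± 0.15), Per2 (1.08 ± 0.39), Ppargc1a (−0.84 ± 0.25), Smad7 (0.94 ± 0.33) and A1bg (5.97 ± 1.81, adjusted p = 0.104). Crp, Ppargc1a and A1bg went against the direction of most of their lists. A1bg, from the sex-biased list, was at 381, 188.7 and 128.3 CPM in the 3 females, all of them in S. The 2 S males were at 1.83 and 0 CPM, the NS males at 0 to 17.6 CPM and the C males at 0.139 to 2.66 CPM, and in males alone its log2 fold change was 2.02 ± 0.97 (adjusted p = 0.346).

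Markers of other cell types mostly did not pass. None of the 18 Kupffer cell and macrophage markers, 11 neutrophil and monocyte markers, 20 endothelial markers and 18 bile duct markers tested passed in edgeR, where an unadjusted p under 0.05 was held by 1, 2, 2 and 5 of them, and DESeq2 passed 0, 1, 2 and 3. The log2 fold change lay above 0 for 16, 4, 7 and 12 of them, with list medians of 0.25, −0.26, −0.03 and 0.33. For the Kupffer cell list the median was −0.06 in NS, 0.42 in S and −0.13 in males alone. The summed level of these lists varied within HFD, as for the Kupffer cell list, at 433 to 750 CPM in C, 296 to 751 CPM in NS and 248 to 1430 CPM in S. None of 5 skeletal muscle, 3 red blood cell and 3 pancreatic acinar markers passed in edgeR or DESeq2 (2, 1 and 0 at an unadjusted p under 0.05 in edgeR). Skeletal muscle markers summed to at most 5.02 CPM in C and 4.16 CPM in NS but reached 120 CPM in 1 S animal. Cd79b, a B cell marker, was the 1 of 28 lymphocyte markers to pass in edgeR (3.57%, beside 2.07% of all genes that rose). It rose (1.62 ± 0.47, adjusted p = 0.0921) at medians of 0.255 and 0.752 CPM, a call that held in 5 of 16 fits with 1 animal left out. Of the 28, 22 had a log2 fold change above 0, with a list median of 0.30 (0.12 in NS and 0.48 in S). Car3, a carbonic anhydrase listed with adipocyte markers and also known from liver, was the 1 of 6 adipocyte markers to pass in edgeR (2 in DESeq2), and fell 2.41-fold, from a median of 7590 CPM to 2925 CPM (−1.27 ± 0.28, adjusted p = 0.0385). The part of any of these cells in the diet response was not tested.

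Most called genes belonged to no list, 79 of the 96 higher and 41 of the 55 lower. Prss35, a secreted protein related to serine proteases, was at 0 to 6.77 CPM in C (median 2.72) and at 13.5 to 93.7 CPM on HFD (median 34.0). Every HFD animal was above every C animal, and the rise was 15.8-fold (3.98 ± 0.59, adjusted p = 0.00399). Zmym3, a zinc finger protein of chromatin complexes, rose 2.51-fold without overlap (1.33 ± 0.20, adjusted p = 0.00399). Zfp541, a zinc finger gene known from germ cells, stood at 2.35 to 10.6 CPM in C (median 3.79) and at 7.76 to 34.8 CPM on HFD (median 15.0). The SM2 animal was the highest of the C animals and the only one within the HFD range, and the rise was 4.43-fold (2.15 ± 0.32, adjusted p = 0.00399). Dapl1 rose 5.86-fold (2.55 ± 0.38, adjusted p = 0.00399), Gse1 3.50-fold (1.81 ± 0.32, adjusted p = 0.0114) and Lrfn3, an adhesion gene best known from synapses, 2.30-fold (1.20 ± 0.21, adjusted p = 0.0108). The receptor gene Notch4 rose 2.16-fold (1.11 ± 0.22, adjusted p = 0.0235), a call lost without C animal 10876.

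Among lower genes outside the lists, Crem, a transcription factor of cAMP signalling, ranged from 126 to 242 CPM in C (median 180) and from 44.3 to 114 CPM on HFD (median 79.7). It did not overlap and fell 2.24-fold (−1.16 ± 0.17, adjusted p = 0.00399). The glutamate transporter gene Slc1a2 fell 2.45-fold (−1.29 ± 0.23, adjusted p = 0.0108), with 2 C animals near the highest HFD animals. Mms22l, a DNA repair gene, fell 2.09-fold (−1.06 ± 0.19, adjusted p = 0.0128) and Mfsd4b1 5.05-fold (−2.34 ± 0.46, adjusted p = 0.0216). Among called genes measured in both groups, the largest fitted changes were those of the acyl-CoA synthetase gene Acsl6 (4.34 ± 1.06), Prss35, Apoa4, the sugar transporter gene Slc5a10 (3.70 ± 0.84) and Ces4a among the higher genes, and those of Ugt2a2, Fmo6, Hilpda, Mfsd4b1 and Jakmip3 (−2.22 ± 0.61) among the lower. Acsl6 was at 0 to 33.6 CPM on HFD with a median of 0.732 CPM, and its call was lost without any 1 of 5 animals. The call of Jakmip3 held in 7 of 16 fits with 1 animal left out.

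At the lower end, 13 called genes had 3 counts or fewer in every animal of 1 group, 9 of them higher and 4 lower. The aldehyde oxidase gene Aox2 had 1 count in all C animals together and 42 on HFD, in 9 of 10 animals. Edaradd had 1 count in C and at least 1 in each of the 10 HFD animals, 29 in all. Myo16 had none in C and was at least 50.0-fold higher on HFD, against a floor of 3 counts over the group, but 127 of its 219 counts came from 1 animal. Nmrk2 had none in C and was at least 24.9-fold higher, with counts in 4 of 10 HFD animals and 72 of 109 in 1 of them. Eya2 had 91 counts in C, 90 of them in 1 animal, and none on HFD, at least 44.3-fold lower. Edaradd, Myo16, Nmrk2 and Eya2 were named after their counts had been seen. In Myo16, Nmrk2 and Eya2 a single animal held most of the counts of the group.

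The response was then compared between the histologies, to see which of its genes differed between NS and S. No called gene, of 151, differed between S and NS at an adjusted p under 0.1 in edgeR's test of S minus NS, 25 did at an unadjusted p under 0.05, and DESeq2 passed 10 of them at an adjusted p under 0.1. Over all genes, 22 of 12639 passed an adjusted p of 0.1 in that test (0.174%) and 1729 an unadjusted p of 0.05 (13.7%). The 151 genes were called in a fit of diet and stock without histology, where a difference between NS and S adds to the spread. Genes that differ between the histologies were therefore less likely to be among the 151. Their absence there cannot show that the response is shared. For 42 called genes, 27 higher and 15 lower, the 95% interval of S minus NS lay within 1 log2 unit of 0. For the others the data could not place the difference within 2-fold. The median log2 fold change of the 96 higher genes was 1.39 in NS and 1.66 in S, and that of the 55 lower genes −1.21 and −1.59, each against the same 6 C animals. In that model, 29 of all genes were called for NS against C (0.229%) and 659 for S against C (5.21%), and the number of animals on HFD was 5 in each. S held 3 females and 2 males, while NS and C were all male. Histology and sex are therefore mixed in every comparison of S with NS or C, and the part of sex was not tested.

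Fads1 had nearly equal changes in both histologies, 1.61 ± 0.18 in NS and 1.63 ± 0.18 in S, with a difference of 0.02 (95% interval −0.37 to 0.41). Zmym3 was similar, at 1.32 ± 0.22 and 1.33 ± 0.23, and S minus NS was 0.01 (−0.47 to 0.49). Crem differed by 0.04 (−0.42 to 0.51) and Ethe1 by −0.14 (−0.64 to 0.35). Gnmt fell by 2.23 ± 0.35 log2 units in NS and by 2.16 ± 0.35 in S, with a wider interval of −0.67 to 0.80. For each of these 5 genes, NS against C alone had an adjusted p of 0.0338 or lower and S against C one of 0.00877 or lower. Wide intervals were found for Apoa4 (0.90, −0.62 to 2.42), Prss35 (−0.31, −1.51 to 0.90) and Ugt2a2 (−0.40, −2.38 to 1.58), for which a difference of 2-fold or more between the histologies cannot be told from none.

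**Figure D4:**
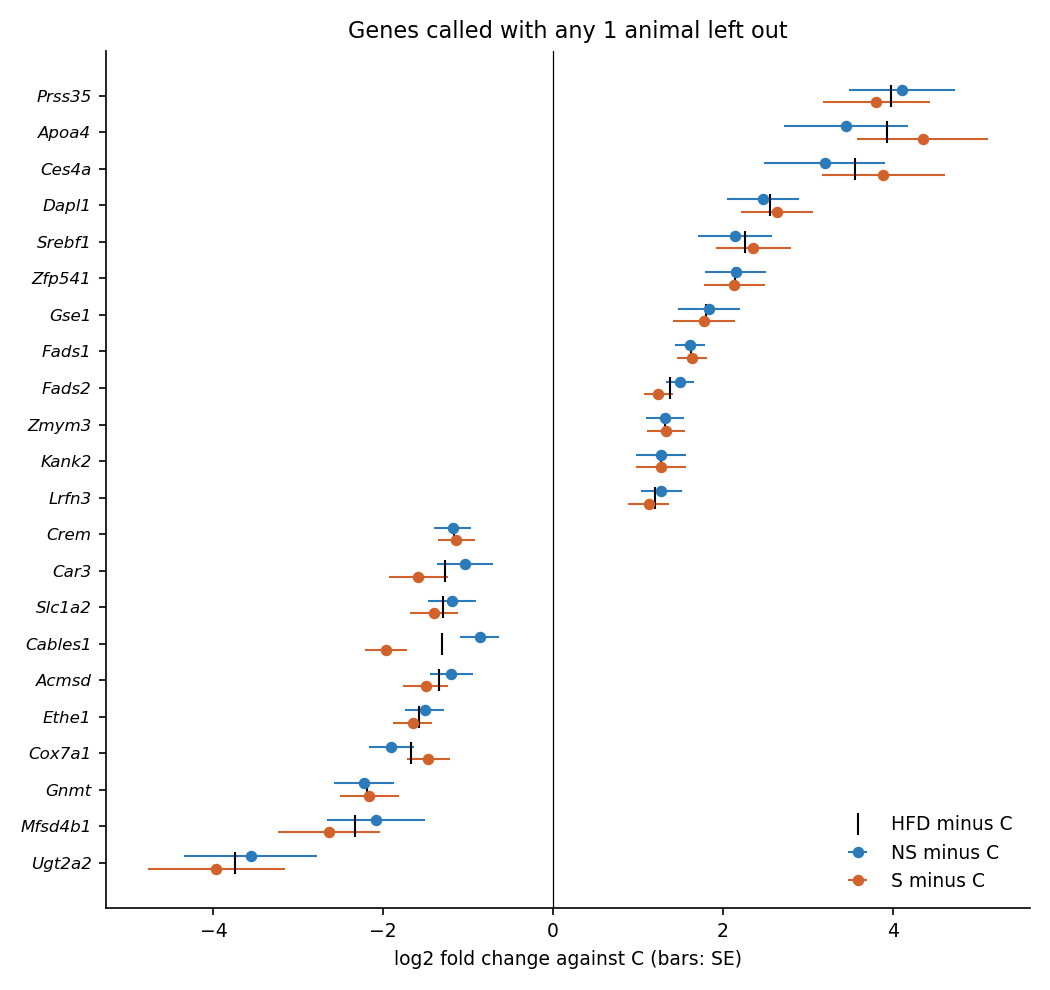
Of the 23 genes called with any 1 animal left out, 22 are listed on the y axis, with the log2 fold change against C on the x axis, NS in blue, S in orange, bars of 1 SE, and the value of all HFD animals as a black tick. NS and S share the 6 C animals, and the markers of all 22 genes lie on the same side of 0 in both, with the widest gap relative to the SE in Cables1 (−0.86 in NS and −1.97 in S).

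The 5 called genes with the smallest p for S minus NS were Cables1, Myrip, Nnmt, Cabcoco1 and Tyro3, and none passed an adjusted p of 0.1. With 1 animal left out, their diet calls held in 16, 3, 4, 6 and 8 of 16 fits in that order. S and NS also differ in sex. Cables1, a cell cycle adaptor, was at 5.88 to 17.6 CPM in C, 3.32 to 9.71 CPM in NS and 1.5 to 6.33 CPM in S (S minus NS −1.10, −1.63 to −0.57). Nnmt was at 109 to 350 CPM in C, 25.6 to 149 CPM in NS and 18.9 to 52.1 CPM in S (−1.54, −2.40 to −0.69). Myrip, which links Rab27 vesicles to myosin, went the other way, at 4.23 to 16.1 CPM in C, 0.378 to 1.70 CPM in NS and 0.487 to 13.5 CPM in S (2.52, 1.39 to 3.65). The receptor kinase gene Tyro3 was higher in S than in NS (1.23, 0.54 to 1.92) and Cabcoco1 lower (−3.22, −4.83 to −1.62), both at under 6 CPM in every animal.

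Because every female was steatotic, the comparison was repeated in males, 7 on HFD and 6 on chow. All 151 called genes kept their direction (96 higher and 55 lower), with a median log2 fold change of 1.58 over the higher and −1.27 over the lower genes. These 13 males were among the animals in which the 151 genes were called, so the shared direction is no independent support. In this smaller group 58 of 12492 genes were called (0.464%), 32 higher and 26 lower, and 42 of them were among the 151. Fads1 (1.64, adjusted p = 0.000113), Fads2 (1.52, adjusted p = 0.000163), Gnmt (−2.43, adjusted p = 0.00231), Ethe1 (−1.52, adjusted p = 0.00343) and Cox7a1 (−1.74, adjusted p = 0.00747) were called in males. Srebf1 (2.35, adjusted p = 0.0338), Apoa4 (3.80, adjusted p = 0.0528) and Prss35 (4.32, adjusted p = 0.00812) were called as well. Fabp1, Cyp3a13, Cyp1a1, Nnmt, Tyro3, Incenp and Hilpda were not called in males, with adjusted p between 0.156 and 0.245. The log2 fold change in males and in all animals was 1.62 and 1.58 for Fabp1, 1.43 and 1.49 for Cyp1a1, 2.02 and 1.99 for Incenp, and −2.28 and −2.37 for Hilpda. It was −0.89 and −1.01 for Cyp3a13, −1.16 and −1.44 for Nnmt, and 1.26 and 1.46 for Tyro3.

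**Figure D5:**
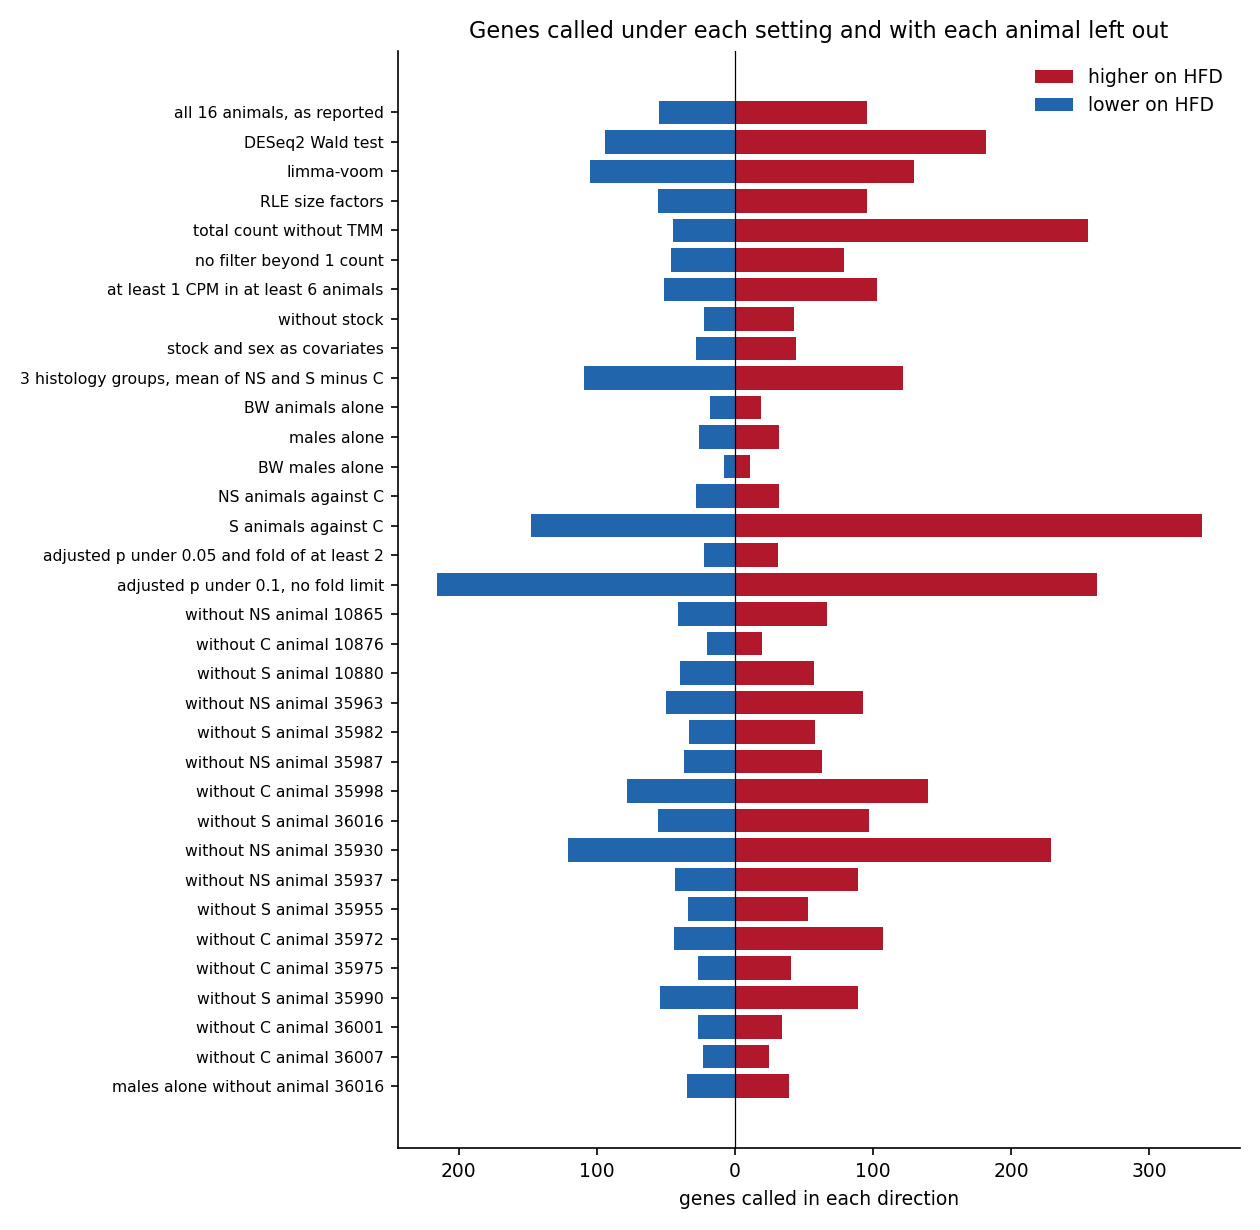
Bars give the number of genes called higher (red, right) and lower (blue, left) on HFD, on a linear axis from 0 in both directions, for each setting and with each animal left out. The number was 151 with all animals, 40 without C animal 10876, 350 without NS animal 35930, 301 without TMM scaling and 37 in BW animals alone.

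The number of calls also depended on how stock was treated. Without stock in the fit 65 genes were called, 61 of them among the 151, and in the 13 BW animals alone 37 were called, 32 of them among the 151. The SM2 animal in C stood far above the other C animals for Fads1 (258 CPM, the others at 153 to 185 CPM) and for Zfp541 and Cyp2d22, so that 1 animal set the upper end of the C range in these genes. The diet response within SM2 rested on 2 HFD animals and 1 C animal and was not tested.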

How the data were processed

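Per the labels and the study's methods, RNA from 16 livers was sequenced as paired ends, and the authors aligned the reads to the HU_Pman_2.1 assembly (STAR 2.7.2). Reads with a unique alignment were assigned to Ensembl genes by featureCounts, and the authors deposited the raw counts. The strand setting and the conversion to mouse-style symbols are not given in the sources used here, so counts of overlapping genes and close paralogs are uncertain. The table held 0 lines without a gene and 0 columns of other samples. Depth and group sizes are given with the results. Counts of a few reads are dominated by counting error.

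The deposited counts were analysed in R 4.3.3 with edgeR 4.0.16, which builds on limma 3.58.1. A gene was kept where any 1 animal reached 0.5 CPM, libraries were scaled by TMM, and the quasi-likelihood test of diet was made in a model with stock, with Benjamini-Hochberg adjustment over all genes tested. S minus NS, and NS and S against C, came from a model of 3 groups with stock. The SE is the fold change divided by the square root of F. The spread is that among animals of each group. Genes named were the first 12 called in each direction by adjusted p, the leading 2 of each list, the 5 with the smallest p for S minus NS, the 5 largest changes in each direction above the floor of 3 counts, and list members and others described as such. Some genes that this rule names are not reported here, though counts and medians include them. Members, lists and tests were chosen with earlier results of these data known.

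The edgeR tests of diet and of S minus NS were run on simulated counts with known changes, and the other steps were not. Alternatives were DESeq2 1.42.0, limma-voom, RLE and total-count scaling, other filters, covariates, thresholds and subsets of animals, and each animal left out. Males without animal 36016 were added after the data were seen. Promoter motifs could not be searched, since no sequence of the build was used here. Figures were drawn with matplotlib 3.10.9 in Python 3.11.15.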

Additional observations from a re-analysis of the deposited data

Results flagged for a closer look

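In each named gene and each diet group, the highest or lowest animal was compared with the others on a log2 scale by Dixon's test, which flags about 1 in 20 groups by chance. Of 154 pairs of gene and group, 17 (11%) had an animal far from the others. In C, the SM2 animal 10876 was the highest for Fads1 (257.5 CPM, the others at 153 to 185.3), Zfp541 (10.63 CPM), Cyp2d22 (43.4 CPM), Notch4 (10.24 CPM) and Acsl6 (0.8857 CPM). C animal 36007 was the highest for Apoa4 (211.9 CPM) and the lowest for Arntl (0.2218 CPM), and 35975 was the highest for Aox2 (0.1387 CPM, which is 1 count). C animal 35972 was the lowest for Gpd1 (83.36 CPM), and 35998, the shallowest C library, was the lowest for Rps2 (628.2 CPM) and Fau (449.8 CPM).

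On HFD, S animal 35990, a female, was the lowest for Apoa1 (7266 CPM), Gpd1 (111.5 CPM) and Fabp1 (2950 CPM), all of which rose on HFD, and the highest for Mmp12 (99.75 CPM). Mmp12 is an elastase of macrophages. Kupffer cell and macrophage markers summed to 248 to 1430 CPM over the S animals and to 433 to 750 CPM in C. Their part in the Mmp12 value was not tested. S animal 10880, the SM2 animal of S, was the highest for Fmo6 (1.218 CPM), and S animal 36016, the shallowest library, was the lowest for Cpb2 (237.6 CPM). What these animals have in common beyond the labels was not tested.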

How the results depend on the processing

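The 151 called genes became 276 with DESeq2, 235 with limma-voom, 301 by total count (256 higher and 45 lower, so 85% higher against 63.6%), 65 without stock, 72 with stock and sex, and 231 as the mean of NS and S in 3 groups (122 and 109, 52.8% higher). They became 37 in BW animals (19 and 18), 58 in males, 74 in males without animal 36016, 19 in BW males, 60 in NS against C (32 and 28), 486 in S against C, 53 at an adjusted p under 0.05 and 478 without a fold limit, and ranged from 40 to 350 with each animal left out. RLE gave 152, no filter 125 and the stricter filter 154. Calls of S minus NS, 17 in all, became 121 with DESeq2, 9 with the stricter filter, 1 without stock, 409 in males alone, where 2 S animals remain, and 5 to 27 with each animal left out. The cause of these moves was not tested, other than that the subsets hold fewer animals.

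No named gene changed direction in any of 2382 refits, and the 45 called ones kept their call in 1084 of 1391. The refits used the same animals or subsets of them, and the genes were named from these data, so the unchanged direction is no independent support. By total count, the medians of the lists of fatty acid oxidation, droplets, triglyceride synthesis, esterases, NRF2, the unfolded protein response and coagulation turned from below to above 0. No paired analysis was possible because the labels give animals no numbers shared between groups. At these depths, genes under 1 CPM rest on a few reads.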
